A study of Mus musculus with 12 samples.

Results

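The polyamine synthesis and antizyme genes described here were chosen by their symbols and by what they encode. They are 8 of the 20661 genes in the count files: Odc1, Srm, Sms and Amd1 for the enzymes of synthesis, Oaz1 and Oaz2 for the antizymes, Azin1 for the antizyme inhibitor and Sat1 for the first enzyme of breakdown. RNAseq and ribosome profiling were performed on passage 4 mouse embryonic fibroblasts (MEFs), primary cells grown from embryos, in 3 groups with 2 replicates each, which gave 12 libraries. WT-shSCR MEFs were wild type cells (strain C57BL/6J in the labels, B6129SF2/J in the methods) transduced with a lentivirus for a scrambled shRNA. The WT-shARF group was made from the same wild type cells with an shRNA against Arf. ArfKO-shSCR (Arf-/-) MEFs came from the strain B6.129X1-Cdkn2atm1Cjs/KaiJ, in which Arf is disrupted in every cell, and carried the scrambled shRNA. All 3 groups had thus been transduced with an shRNA lentivirus and selected with puromycin, and no group was free of either. The strain differed together with the genotype, so the effects of the 2 cannot be told apart. Neither the labels nor the methods say whether replicates came from separate embryos or cultures, so the p-values below measure only the spread between these samples, which may be technical.

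Polyamines (putrescine, spermidine and spermine) are small positively charged molecules that bind RNA and DNA and that dividing cells need for growth and protein synthesis. Ornithine decarboxylase (Odc1) makes putrescine from ornithine, and spermidine synthase (Srm) and spermine synthase (Sms) extend it with aminopropyl groups that come from S-adenosylmethionine through its decarboxylase (Amd1). Spermidine/spermine acetyltransferase (Sat1) acetylates the products so that they can be exported or broken down. The pathway is held in check by antizymes (Oaz1, Oaz2), which bind ornithine decarboxylase and send it to the proteasome, while the antizyme inhibitor (Azin1) resembles ornithine decarboxylase, has no such activity and takes up antizyme. Full antizyme is made only when ribosomes shift forward by 1 base at the stop codon of a short first reading frame, and polyamines raise the rate of that shift.

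The frameshift sites of both antizyme mRNAs are shown because they set these genes apart from the other members and because counts per gene cannot see which frame was read. In the GENCODE M21 annotation of GRCm38 (mm10) the coding sequence of each gene skips a single base in the middle of an exon. The 30 bases around it are given 5′ to 3′ on the plus strand, with T for U. The capitals mark the last codon of the first frame (TCC), the stop codon (TGA) and the base after it, over which the ribosome slips, and the skipped base is the T of the stop codon. The Oaz1 stretch lies at chr10:80828280-80828309 with the skipped base at 80828295, and the gap is annotated in 3 coding transcripts. The Oaz2 stretch lies at chr9:65686257-65686286 with the skipped base at 65686272, and the gap is annotated in 2 coding transcripts. The capital letters read the same in both genes.
Oaz1: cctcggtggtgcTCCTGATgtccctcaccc
Oaz2: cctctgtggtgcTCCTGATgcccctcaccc

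The RNAseq libraries held 1578627 to 3989908 reads on genes, and the ribosome profiling libraries 2544319 to 5157572. The gene targeted in the study, Cdkn2a, encodes ARF and, in another frame, p16INK4A, and its counts do not separate the 2. In the 2 WT-shARF libraries Cdkn2a RNA averaged 656 counts per 1000000 counts on genes (CPM) against 43.4 in WT-shSCR, a rise of 3.91 on the log2 scale (SE 0.16, edgeR adjusted p = 5.57e-18). The rise is in a count that pools both transcripts, so it does not show the level of the ARF transcript alone. The paper presents an immunoblot of ARF knockdown in MEFs and states that its shRNA leaves INK4A expression unaffected. The cause of the rise was not tested, so these samples are called the libraries labelled WT-shARF below. In ArfKO-shSCR MEFs Cdkn2a RNA averaged 29.9 CPM. Fibroblast markers were present throughout, with none of 10 such genes at 0 in a group. Against WT-shSCR, 2 of the 10 were higher in ArfKO-shSCR RNA with an edgeR adjusted p under 0.05, beside 3.94% of all genes. These were Col3a1 (log2 difference 0.90) and Pdgfra (2.38). Only Fn1 was lower by the same test (-1.49), which is 1 of 10 beside 3.99% of all genes. The summed level of the 10 markers was nonetheless lower in ArfKO-shSCR. It was 21590 to 25030 RNA CPM in WT-shSCR, 22600 to 22700 in the libraries labelled WT-shARF and 16500 to 17770 in ArfKO-shSCR. Markers of myeloid cells also differed between the groups. Their summed level over 16 genes was 781.1 to 798.6 RNA CPM in WT-shSCR, 307.6 to 402 in the libraries labelled WT-shARF and 74.27 to 122.4 in ArfKO-shSCR, with no gene of the list at 0 in a group. The summed level of 9 mesothelial markers was 99.4 to 101.3, 63.78 to 76.62 and 172.2 to 190.7 RNA CPM in the same order. In such bulk samples fewer cells of a type and less RNA per cell cannot be told apart. The part of these marker lists in the results below was not tested.

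Of the 8 members, 7 had counts that could be tested, and Amd1 had a count of 0 in all 12 libraries. Its near-identical copy Amd2 was also at 0 throughout. At a window length of 28 bases, within the range of the sequenced fragments (17 to 34 bases), 100% of the coding windows of Amd1 occur in another annotated gene, and 97.1% in Amd2, which is itself in the count files. Reads that aligned to more than 1 place were set apart in the authors' counting, and they made up 79.22% to 81.38% of the alignments listed in the closing rows and on genes in RNAseq and 46.34% to 52.92% in ribosome profiling. The part of this in the zeros of Amd1 was not tested, so nothing is said here of its level. The share of coding windows found in other annotated genes, mostly pseudogenes, was 97.8% for Sms, 79% for Oaz1, 78.3% for Odc1, 50.4% for Oaz2, 41% for Sat1, 21.4% for Srm and 0% for Azin1. Among genes in the count files the other 7 members shared such windows only in the case of Odc1, with 30.3% of its windows in AW146154. The levels of all members but Azin1 are therefore uncertain, while each gene is compared with itself between groups.

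The antizyme Oaz1 had the highest counted RNA level per kilobase among the 7 counted members. The full coding length was used, and shared windows were not taken out of it. Per kilobase of coding sequence, RNA levels in WT-shSCR averaged 794.9 CPM per kilobase for Oaz1, 228.8 for Odc1, 167.9 for Sat1, 135.8 for Srm, 46.8 for Azin1, 39.8 for Oaz2 and 21.4 for Sms (n = 2 each). Only Azin1 and Oaz2, which are neighbours in this order, overlapped in their replicates. In the footprints of the same cells the order began with Srm at 181.7 CPM per kilobase, followed by Oaz1 at 163.6, Sat1 at 95.6, Odc1 at 92.5, Oaz2 at 51.5, Azin1 at 35.0 and Sms at 25.1, and of these neighbours only Sat1 and Odc1 overlapped. In both other groups Sat1 RNA stood below Srm RNA, and in ArfKO-shSCR MEFs it overlapped with that of Azin1. Srm and Oaz1 kept the first and the second place among footprints in all 3 groups.

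Ribosome occupancy relative to RNA differed widely between the members. The ratio of mean footprint CPM to mean RNA CPM is called translation efficiency (TE) here when levels are given, and the median over the 7490 genes with at least 10 CPM in both assays was 1.005 in WT-shSCR. Oaz1 stood at the low end, with a TE of 0.206 that was at percentile 1.05 of these genes. Odc1 had a TE of 0.404 (percentile 5.61), Sat1 of 0.569 (percentile 14.5) and Azin1 of 0.747 (percentile 28.1). Srm at 1.34 was above the median gene in every pairing of libraries, while Sms at 1.17 and Oaz2 at 1.29 had pairings on both sides of it. The 2 antizymes, which share their frameshift signal, were thus at different places on this scale, and their ranges over the possible pairings of libraries did not overlap (0.193 to 0.219 for Oaz1, 0.901 to 1.83 for Oaz2). Footprints here were cut with RNase T1, which cuts after G, and the base composition of each gene was not accounted for.

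**Figure D1:**
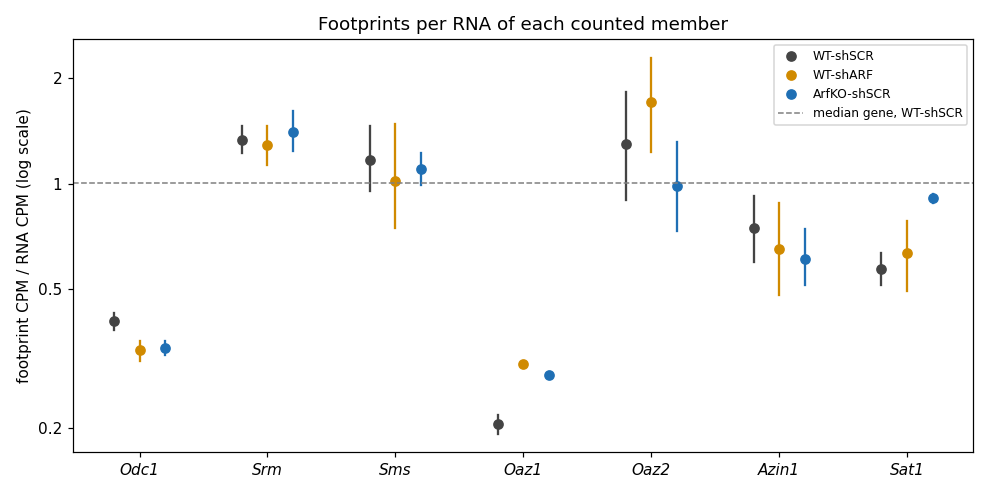
Ratio of mean footprint CPM to mean RNA CPM (log axis) of the 7 counted members in WT-shSCR, the libraries labelled WT-shARF and ArfKO-shSCR. Points are ratios of group means (n = 2 libraries per assay), lines span the lowest and highest ratio over the pairings of libraries, and the dashed line is the median gene in WT-shSCR at 1.005. Oaz1 has the lowest ratio in each group, from 0.206 to 0.305.

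Knockout of Arf was compared with WT-shSCR to ask how the genes of this pathway changed when ARF was absent. In RNA, Odc1 and Azin1 rose and Sat1 fell in ArfKO-shSCR MEFs, so 3 of the 7 members tested had an adjusted p under 0.05, beside 7.93% of all 10659 genes tested (3.94% higher, 3.99% lower). The median change of the 7 members was 0.27 on the log2 scale with 4 above 0, while the median of all genes was -0.00 with 49.6% above 0. In footprints Odc1, Srm and Sms rose and Sat1 fell, which is 4 of 7 members beside 18.5% of all 10737 genes tested (9.57% higher, 8.95% lower), and the members' median change was 0.36 with 5 above 0, beside 49.9% of all genes. The replicates of the 2 groups did not overlap for any of these 7 calls. This adds no support, since the calls rest on the same values, and the share of all genes without overlap was not computed. DESeq2 called 2 of the members in RNA, with 414 of all genes called where edgeR called 845. It called 0 in footprints, with 1153 of all genes called where edgeR called 1988. With a library left out, calls ended for some members in some RNA fits and for all of them in footprints. In both assays every such fit also called fewer of all genes.

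**Figure D2:**
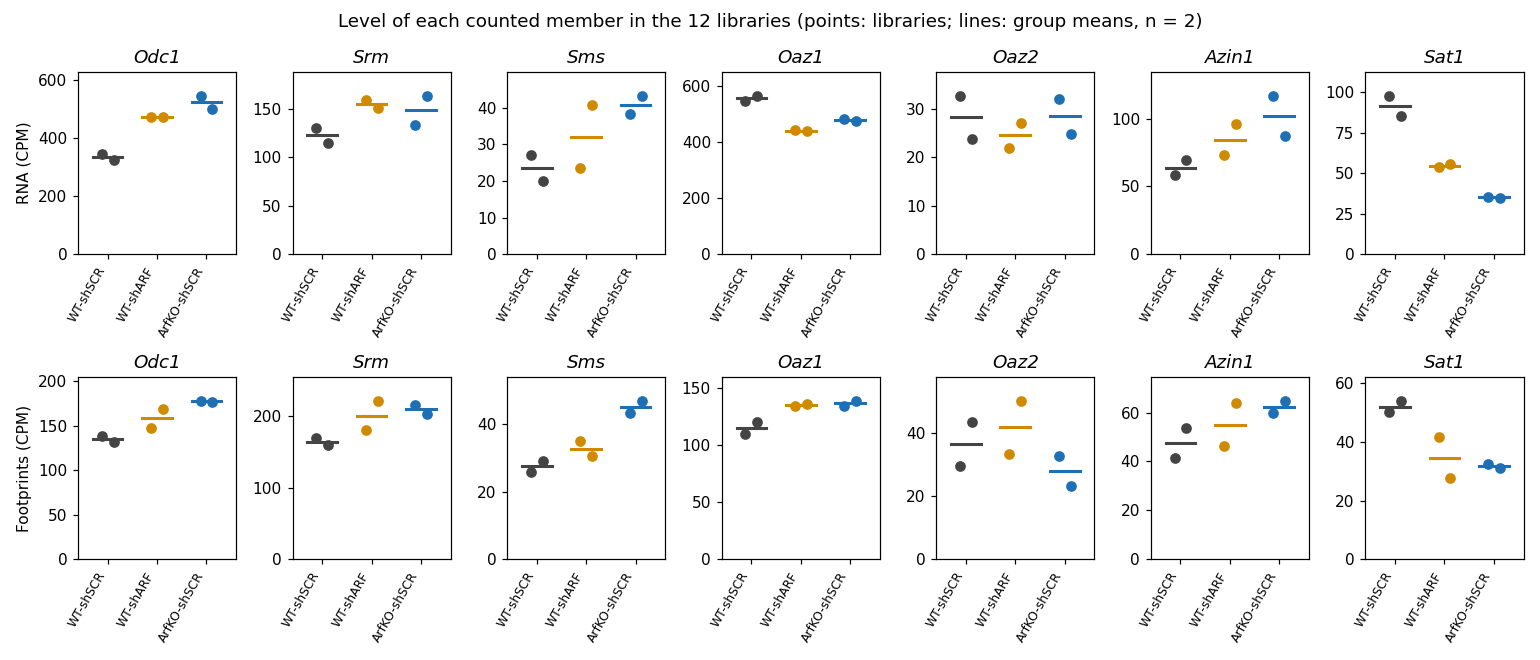
CPM of each counted member in the 6 RNAseq libraries (upper row) and the 6 ribosome profiling libraries (lower row), each panel on its own linear axis from 0. Points are libraries and lines are group means (n = 2). Sat1 RNA steps down from 85.1 and 97.9 CPM in WT-shSCR to 34.8 and 35.3 in ArfKO-shSCR, while Odc1 RNA steps up.

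Odc1, the enzyme that starts the pathway, had 345 and 325 RNA CPM in WT-shSCR, 474 and 474 in the libraries labelled WT-shARF, and 547 and 502 in ArfKO-shSCR. The 3 groups did not overlap, with WT-shSCR lowest. RNA was 1.56-fold higher in ArfKO-shSCR than in WT-shSCR, a log2 difference of 0.64 (SE 0.15, 95% interval 0.34 to 0.95, edgeR adjusted p = 0.00854). It was 1.41-fold higher in the libraries labelled WT-shARF, a log2 difference of 0.49 (SE 0.13, edgeR adjusted p = 0.0158). The first call was lost without either WT-shSCR replicate, with log2 differences of 0.69 without replicate 1 and 0.61 without replicate 2. The second was lost without either replicate labelled WT-shARF (0.50 and 0.50) or without WT-shSCR replicate 2 (0.45). Footprints on Odc1 were 139 and 132 CPM in WT-shSCR, 148 and 169 in the libraries labelled WT-shARF, and 178 and 177 in ArfKO-shSCR, again without overlap. The footprint difference was 0.40 on the log2 scale for ArfKO-shSCR (SE 0.12, edgeR adjusted p = 0.0208; DESeq2 adjusted p = 0.0514) and 0.23 for the libraries labelled WT-shARF (SE 0.13, edgeR adjusted p = 0.279).

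Srm and Sms, the enzymes that add aminopropyl groups, were higher in the footprints of ArfKO-shSCR MEFs. Srm footprints were 169 and 160 CPM in WT-shSCR, 180 and 221 in the libraries labelled WT-shARF, and 216 and 204 in ArfKO-shSCR, so that both WT-shSCR libraries lay below the other 4. The difference of ArfKO-shSCR from WT-shSCR was 0.36 (SE 0.12, edgeR adjusted p = 0.0292; DESeq2 adjusted p = 0.063, and edgeR with upper quartile factors 0.0506). Srm RNA was 131 and 115 CPM in WT-shSCR, 159 and 152 in the libraries labelled WT-shARF, and 134 and 164 in ArfKO-shSCR, and its difference of 0.27 did not pass the test (SE 0.17, edgeR adjusted p = 0.387). Sms had far fewer counted reads, and 97.8% of its coding windows occur in other annotated genes. Its footprints were 25.9 and 29.2 CPM in WT-shSCR, 35.0 and 30.5 in the libraries labelled WT-shARF, and 43.1 and 46.8 in ArfKO-shSCR. The 3 groups of Sms footprints did not overlap, and ArfKO-shSCR was 1.65-fold above WT-shSCR (log2 difference 0.72, SE 0.21, edgeR adjusted p = 0.0158; DESeq2 adjusted p = 0.118). Sms RNA was 27.1 and 19.996 CPM in WT-shSCR, 23.6 and 40.8 in the libraries labelled WT-shARF, and 38.2 and 43.4 in ArfKO-shSCR. Its RNA difference was of like size, 0.76, with a wider error (SE 0.27, edgeR adjusted p = 0.0893).

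Azin1, the inhibitor that takes up antizyme, had 58.0 and 69.0 RNA CPM in WT-shSCR, 72.9 and 96.1 in the libraries labelled WT-shARF, and 117 and 87.2 in ArfKO-shSCR. WT-shSCR was below both other groups, which overlapped each other. RNA in ArfKO-shSCR was 1.62-fold higher, a log2 difference of 0.69 (SE 0.21, edgeR adjusted p = 0.046). This call was near the threshold and was lost with DESeq2 (adjusted p = 0.181), with the replicate number as a block (edgeR adjusted p = 0.0579), and without ArfKO-shSCR replicate 1 (0.322), WT-shSCR replicate 1 (0.319) or WT-shSCR replicate 2 (0.152). Azin1 footprints were 41.3 and 53.6 CPM in WT-shSCR, 46.2 and 64.0 in the libraries labelled WT-shARF, and 59.8 and 64.8 in ArfKO-shSCR, and the difference of 0.41 between ArfKO-shSCR and WT-shSCR did not pass (SE 0.18, edgeR adjusted p = 0.124).

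Oaz1, the major antizyme, showed RNA and footprints that differed from WT-shSCR in opposite directions. Its RNA was 547 and 567 CPM in WT-shSCR, 444 and 440 in the libraries labelled WT-shARF, and 482 and 478 in ArfKO-shSCR. Its footprints were 109 and 120 CPM in WT-shSCR, 134 and 135 in the libraries labelled WT-shARF, and 134 and 139 in ArfKO-shSCR. In both assays the WT-shSCR libraries stood apart from the other 4, at the top in RNA and at the bottom in footprints. No single difference passed the test. For RNA it was -0.22 in ArfKO-shSCR (SE 0.14, edgeR adjusted p = 0.392) and -0.34 in the libraries labelled WT-shARF (SE 0.13, edgeR adjusted p = 0.105), and the latter passed when the replicate number was a block (edgeR adjusted p = 0.0484). For footprints it was 0.27 (edgeR adjusted p = 0.181) and 0.24 (edgeR adjusted p = 0.297).

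Oaz2, the second broadly expressed antizyme, had far fewer reads, and none of its differences from WT-shSCR passed the test. Its RNA was 32.8 and 23.9 CPM in WT-shSCR, 21.98 and 27.2 in the libraries labelled WT-shARF, and 32.0 and 24.9 in ArfKO-shSCR, from 37 to 116 reads per library. Its footprints were 29.5 and 43.8 CPM in WT-shSCR, 33.6 and 50.3 in the libraries labelled WT-shARF, and 32.7 and 23.4 in ArfKO-shSCR. All 3 groups overlapped in RNA, and in footprints ArfKO-shSCR overlapped with WT-shSCR and lay below the libraries labelled WT-shARF. The interval of the RNA difference between ArfKO-shSCR and WT-shSCR reached from -0.60 to 0.58 on the log2 scale.

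Sat1, the acetyltransferase that opens polyamine breakdown, showed the largest change among the members. Its RNA was 97.9 and 85.1 CPM in WT-shSCR, 53.6 and 55.8 in the libraries labelled WT-shARF, and 35.3 and 34.8 in ArfKO-shSCR. The 3 groups did not overlap, and the replicates of the 2 lower groups lay close together. RNA was 2.62-fold lower in ArfKO-shSCR than in WT-shSCR, a log2 difference of -1.39 (SE 0.21, 95% interval -1.83 to -0.95, edgeR adjusted p = 0.000268), and this call stood under every alternative and without any single library (largest adjusted p = 0.0262). Against WT-shSCR the libraries labelled WT-shARF were 1.68-fold lower, a log2 difference of -0.75 (SE 0.19, edgeR adjusted p = 0.00979). The latter call was lost with DESeq2 (adjusted p = 0.0652) and without either replicate labelled WT-shARF (edgeR adjusted p = 0.104 and 0.119) or WT-shSCR replicate 1 (0.0833). Sat1 footprints were 50.1 and 54.0 CPM in WT-shSCR, 41.9 and 27.6 in the libraries labelled WT-shARF, and 32.5 and 31.1 in ArfKO-shSCR. Both WT-shSCR libraries were above the other 4, and footprints in ArfKO-shSCR were lower by a log2 difference of -0.70 (SE 0.20, edgeR adjusted p = 0.0113; DESeq2 adjusted p = 0.11). In the libraries labelled WT-shARF the footprint difference was -0.61 (SE 0.23, edgeR adjusted p = 0.0796), and it passed without replicate 1 of that group (-0.91, edgeR adjusted p = 0.0385). The summed level of the 16 myeloid markers had the same order of groups as Sat1, though not each marker did. In ArfKO-shSCR RNA 14 of 16 of them were lower with an edgeR adjusted p under 0.05, beside 3.99% of all genes. In RNA of the libraries labelled WT-shARF 6 of 16 were, beside 4.17%. By the same test 15 of 15 and 9 of 15 tested were lower in footprints, beside 8.95% and 5.5% of all genes. Markers that did not pass could still be lower. Their summed footprint level was 916 to 925.6 CPM in WT-shSCR, 362.7 to 456.7 in the libraries labelled WT-shARF and 66.95 to 86.42 in ArfKO-shSCR. Their part in the change of Sat1 was not tested.

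The libraries labelled WT-shARF were compared with WT-shSCR to ask the same of the shRNA against Arf. In RNA 2 of 7 members passed, Odc1 and Sat1, beside 7.28% of all 10503 genes tested (3.11% higher, 4.17% lower). DESeq2 called 1 of them, with 291 of all genes called where edgeR called 765. In footprints edgeR and DESeq2 each called 0 of 7, beside 11.1% of all 10307 genes tested with edgeR (5.63% higher, 5.5% lower). Before adjustment 2 members, Sat1 and Srm, had an edgeR p under 0.05, at ranks 1435 and 1765 of the 10307 genes. The members' median change was 0.32 in RNA and 0.24 in footprints, with the median of all genes at -0.00 in both. Both comparisons share the WT-shSCR libraries, so their values are set side by side only. Without either replicate labelled WT-shARF no member kept its RNA call, and fewer of all genes were called too. Without WT-shSCR replicate 1 the RNA call of Sat1 was lost, and without WT-shSCR replicate 2 that of Odc1.

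**Figure D3:**
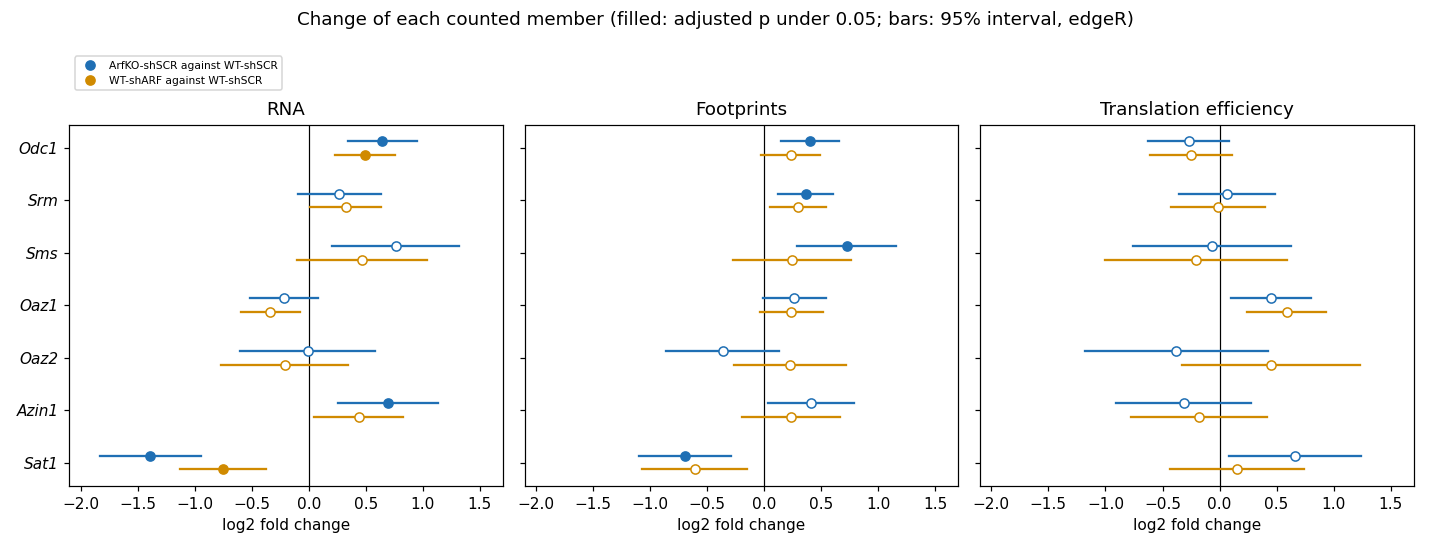
Log2 fold change against WT-shSCR of the 7 counted members in RNA, footprints and TE, with 95% intervals from edgeR, for ArfKO-shSCR and for the libraries labelled WT-shARF. Filled points have an adjusted p under 0.05 and open points do not. Sat1 RNA lies farthest from 0, at -1.39 in ArfKO-shSCR and -0.75 in the libraries labelled WT-shARF, and no TE point is filled.

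Changes of TE were tested in fits of 8 libraries, as the interaction term between assay and condition. With edgeR 0 of 7 members passed in ArfKO-shSCR, beside 0.194% of all 11314 genes tested. DESeq2 also called 0 members, with 79 of all genes called. Before adjustment 2 members, Oaz1 and Sat1, had an edgeR p under 0.05, at ranks 310 and 462 of the 11314 genes. In the libraries labelled WT-shARF edgeR called 0 of 7, beside 0.0354% of 11289 genes. DESeq2 called 1, which was Oaz1, with 55 of all genes called. Oaz1 was also the 1 member with an unadjusted edgeR p under 0.05, at rank 53 of the 11289 genes. The TE of Oaz1 went from 0.206 in WT-shSCR to 0.305 in the libraries labelled WT-shARF and 0.284 in ArfKO-shSCR, and the ranges of the pairings in the latter groups, 0.302 to 0.308 and 0.278 to 0.290, lay above that of WT-shSCR. The log2 change was 0.59 in the libraries labelled WT-shARF (SE 0.17, 95% interval 0.24 to 0.93, edgeR adjusted p = 0.298, DESeq2 adjusted p = 0.0178) and 0.45 in ArfKO-shSCR (SE 0.17, 95% interval 0.10 to 0.80, edgeR adjusted p = 0.53). It therefore rose only by the test that DESeq2 made, and over all alternatives the edgeR and DESeq2 adjusted p for the libraries labelled WT-shARF ran from 0.0178 to 0.937. Such a ratio counts ribosomes in either frame of the mRNA and says nothing of how often the shift was made.

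Sat1 had a TE of 0.569 in WT-shSCR, 0.635 in the libraries labelled WT-shARF and 0.908 in ArfKO-shSCR, since its RNA was lower by more than its footprints. The log2 change of TE in ArfKO-shSCR was 0.66 (SE 0.28, edgeR adjusted p = 0.634). For Odc1, where RNA was higher by more than footprints, TE was 0.404, 0.334 and 0.339 in the same order, with a log2 change of -0.27 in ArfKO-shSCR (95% interval -0.63 to 0.08, edgeR adjusted p = 0.82). The TE of Srm stayed between 1.29 and 1.41 in the 3 groups, and its log2 change in ArfKO-shSCR was 0.06 (95% interval -0.36 to 0.49). For Sms it was -0.07 (95% interval -0.76 to 0.62), for Azin1 -0.32 (95% interval -0.90 to 0.27) and for Oaz2 -0.38 (95% interval -1.18 to 0.42), none of which passed the test.

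ArfKO-shSCR MEFs were also compared with the libraries labelled WT-shARF. In RNA edgeR and DESeq2 each called 0 of 7 members, beside 2.57% of all 10632 genes tested with edgeR. Before adjustment 1 member, Sat1, had an edgeR p under 0.05, at rank 539 of the 10632 genes. Sat1 RNA differed by -0.65 (SE 0.20, edgeR adjusted p = 0.106) without overlap between the groups. In footprints both tools again called 0 of 7, beside 8.23% of 10941 genes with edgeR. Before adjustment 2 members had an edgeR p under 0.05, at ranks 1438 and 1531 of the 10941 genes. These were Oaz2, at -0.60 (SE 0.23, edgeR adjusted p = 0.124), and Sms, at 0.47 (SE 0.18, edgeR adjusted p = 0.133). Oaz2 passed when ArfKO-shSCR replicate 1 was left out (-0.86, edgeR adjusted p = 0.0324). In TE both tools called 0 of 7, beside 0.043% of 11632 genes with edgeR. Oaz2, at -0.79 (SE 0.36, edgeR adjusted p = 0.621), was the 1 member with an unadjusted edgeR p under 0.05, at rank 692 of the 11632 genes.

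Ratios between members within a library put the enzyme beside its regulators. They were computed per kilobase of coding sequence and given with no test, and with 2 libraries per group an exact permutation test could not go below 0.33. The RNA ratio of Odc1 to Oaz1 was 0.302 and 0.275 in WT-shSCR, 0.511 and 0.516 in the libraries labelled WT-shARF, and 0.543 and 0.503 in ArfKO-shSCR, so that WT-shSCR stood below the other groups, which overlapped. In footprints the same ratio was 0.606 and 0.528 in WT-shSCR, 0.528 and 0.596 in the libraries labelled WT-shARF, and 0.635 and 0.612 in ArfKO-shSCR, and only ArfKO-shSCR lay apart, slightly above both others. The RNA ratio of Azin1 to Oaz1 was 0.0547 and 0.0629 in WT-shSCR, 0.0849 and 0.113 in the libraries labelled WT-shARF, and 0.125 and 0.0942 in ArfKO-shSCR. In footprints this ratio was between 0.178 and 0.244 in all 6 libraries, and the WT-shSCR values of 0.195 and 0.231 lay inside the range of the libraries labelled WT-shARF. The separation of WT-shSCR from the others in RNA was thus not seen in the footprints of either ratio for the libraries labelled WT-shARF.

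The ratio of breakdown to synthesis, Sat1 to Odc1, joined the member that fell to one that rose. In RNA it was 0.763 and 0.704 in WT-shSCR, 0.304 and 0.316 in the libraries labelled WT-shARF, and 0.174 and 0.186 in ArfKO-shSCR. In footprints it was 0.972 and 1.10 in WT-shSCR, 0.760 and 0.439 in the libraries labelled WT-shARF, and 0.491 and 0.472 in ArfKO-shSCR. WT-shSCR was highest in both assays, and the other 2 groups were apart in RNA and overlapped in footprints. Between the antizymes, RNA of Oaz1 exceeded that of Oaz2 by a ratio of 15.3 to 24.1 over the 6 RNAseq libraries, while footprints did so by 2.73 to 6.01. No group stood apart in RNA, and in footprints ArfKO-shSCR had the 2 highest ratios, 4.16 and 6.01.

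**Figure D4:**
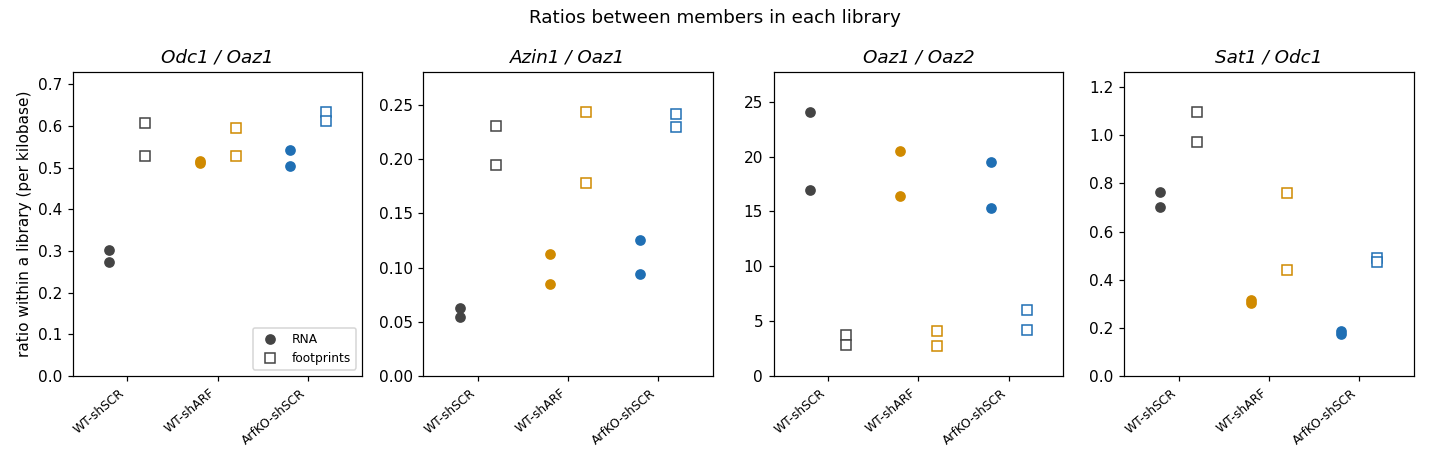
Ratios between members within each library, per kilobase of coding sequence, on linear axes from 0 (filled circles, RNA; open squares, footprints; n = 2 libraries per group and assay). The RNA ratio of Odc1 to Oaz1 lies at 0.275 and 0.302 in WT-shSCR and between 0.503 and 0.543 in the other groups, while the footprint ratios lie between 0.528 and 0.635 throughout.

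A wider list of 28 other genes of polyamine supply, breakdown, transport, hypusine formation and the Myc network, which includes a known regulator of Odc1, was examined in the same fits. In ArfKO-shSCR RNA 0 rose and 2 fell of 18 tested, beside 3.94% and 3.99% of all genes. In RNA of the libraries labelled WT-shARF 0 rose and 1 fell of 18, beside 3.11% and 4.17%. In footprints 3 rose and 2 fell of 19 tested in ArfKO-shSCR, beside 9.57% and 8.95% of all genes, and 2 rose and 1 fell of 20 in the libraries labelled WT-shARF, beside 5.63% and 5.5%. The list's median change was -0.06 and -0.08 in RNA and 0.13 and 0.15 in footprints, in ArfKO-shSCR and in the libraries labelled WT-shARF, where the medians of all genes were at -0.00. Too low in RNA to be tested were 10 genes of this list, which were Arg1, Arg2, Agmat, Mat1a, Amd2, Oaz3, Sat2, Slc12a8, Eif5a2 and Mycn.

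Azin2, the second antizyme inhibitor, fell in RNA and in footprints. Its RNA averaged 63.4 CPM in WT-shSCR, 27.9 in the libraries labelled WT-shARF and 23.9 in ArfKO-shSCR (SD 9.78, 2.31 and 8.64, n = 2 each), and none of its coding windows occurs in another gene. The log2 difference was -1.41 in ArfKO-shSCR (SE 0.27, edgeR adjusted p = 0.00211) and -1.16 in the libraries labelled WT-shARF (SE 0.22, edgeR adjusted p = 0.000887). Footprints fell by 1.55 on the log2 scale in ArfKO-shSCR and by 1.17 in the libraries labelled WT-shARF (edgeR adjusted p = 0.000889 and 0.0326). The RNA call in ArfKO-shSCR was lost without WT-shSCR replicate 2 (log2 difference -1.24). Both footprint calls were lost without WT-shSCR replicate 1 (-1.45 in ArfKO-shSCR and -1.09 in the libraries labelled WT-shARF). The ArfKO-shSCR footprint call was also lost without WT-shSCR replicate 2 (-1.63), and the other without replicate 1 labelled WT-shARF (-0.74). Every footprint fit with a library left out also called fewer of all genes. Atp13a2, a lysosomal polyamine transporter, fell in ArfKO-shSCR by 0.85 in RNA (SE 0.22, edgeR adjusted p = 0.0212; DESeq2 adjusted p = 0.126) and by 1.57 in footprints (SE 0.34, edgeR adjusted p = 0.00101). Its RNA call was lost without ArfKO-shSCR replicate 1 (log2 difference -0.70) or either WT-shSCR replicate (-0.98 and -0.72). Its footprint call was lost without either WT-shSCR replicate (-1.87 and -1.20). The myeloid markers described above fell in the same comparisons as both genes, and their part here was not tested.

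Of the other listed genes that passed the test, 4 rose, all of them in footprints. The share of coding windows found in other annotated genes was 84.1% for Dohh, 45.7% for Eif5a, 42.1% for Mat2a and 2.8% for Mtap. Their levels are uncertain to that extent. Eif5a, the translation factor that carries the hypusine made from spermidine, averaged 929 footprint CPM in WT-shSCR, 1147 in the libraries labelled WT-shARF and 1276 in ArfKO-shSCR, and rose by a log2 difference of 0.31 (SE 0.07, edgeR adjusted p = 0.00531) and 0.47 (SE 0.08, edgeR adjusted p = 1.89e-05). Its RNA, at 621, 649 and 691 CPM, differed by 0.06 and 0.15 without passing the test (edgeR adjusted p = 0.857 and 0.573). Dohh, the hydroxylase that completes hypusine, rose in the footprints of the libraries labelled WT-shARF by 0.60 (SE 0.19, edgeR adjusted p = 0.0362; DESeq2 adjusted p = 0.113). Mat2a, which makes S-adenosylmethionine, rose in ArfKO-shSCR footprints by 0.57 against WT-shSCR (SE 0.11, edgeR adjusted p = 0.000253) and by 0.48 against the libraries labelled WT-shARF (SE 0.09, edgeR adjusted p = 0.00312). Mtap, which salvages the by-product of spermidine and spermine synthesis and lies near Cdkn2a on chromosome 4 (chr4:89137122-89181081 against chr4:89274471-89294653), rose in ArfKO-shSCR footprints by 0.33 (SE 0.12, edgeR adjusted p = 0.0457; DESeq2 adjusted p = 0.103). Myc RNA differed from WT-shSCR by -0.08 in ArfKO-shSCR (SE 0.29, edgeR adjusted p = 0.907) and 0.01 in the libraries labelled WT-shARF (SE 0.25, edgeR adjusted p = 0.991). Myc footprints were 82.6 and 78.8 CPM in WT-shSCR, 97.1 and 106 in the libraries labelled WT-shARF, and 108 and 97.3 in ArfKO-shSCR. The WT-shSCR libraries lay below the other 4, and the differences of 0.35 for ArfKO-shSCR (SE 0.15, edgeR adjusted p = 0.0949) and 0.34 for the libraries labelled WT-shARF (SE 0.15, edgeR adjusted p = 0.176) did not pass the test. Leaving out a library ended some of these calls. In footprints every such fit also called fewer of all genes, so these losses are not particular to the gene. The Eif5a and Mat2a calls in ArfKO-shSCR against WT-shSCR were lost without WT-shSCR replicate 1 (log2 differences 0.41 and 0.65) or replicate 2 (0.54 and 0.50). The Eif5a call in the libraries labelled WT-shARF was lost without replicate 2 of that group (0.23). The Mat2a call against that group was lost without either of its replicates (0.50 and 0.47). The Mtap call was lost in each fit with a library left out (0.26 to 0.43). That of Dohh was lost without replicate 1 or 2 labelled WT-shARF (0.72 and 0.46) or WT-shSCR replicate 2 (0.56).

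Over the 12 libraries, with each assay centred on its own mean, the members could be set beside every other gene with at least 10 CPM in both assays (7489 genes). The correlations are descriptions, since all points share libraries and groups. Odc1 and Sat1 ran opposite to each other (Pearson r = -0.938, n = 12 libraries), and Odc1 ran with Azin1 (0.812), Srm (0.779) and Sms (0.759). Oaz1 and Oaz2 had an r of 0.0807 with each other and between -0.263 and 0.137 with the other members. The 2 genes most like each member but Azin1 were Sgol2a (0.982) and Rbmx (0.969) for Odc1, Klhdc4 (0.943) and Polr2f (0.94) for Srm, Mest (0.957) and Mrpl21 (0.939) for Sms, Rps28 (0.891) and Pfdn6 (0.878) for Oaz1, Atpif1 (0.863) and E2f1 (0.81) for Oaz2, and Dync1li1 (0.975) and Myadm (0.949) for Sat1.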

How the data were processed

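RNA fragments and ribosome footprints of 17 to 34 bases were sequenced for 3 groups of MEFs. The authors clipped adapters, took off barcodes and molecular identifiers with cutadapt and UMI-tools, removed rRNA and other noncoding RNA with Bowtie2, used TopHat for alignment to mm10 and HTSeq to count the reads of each coding sequence; versions are not given in the sources used here, and no removal of duplicate reads is stated. Yeast lysate had been added as a spike-in, which the authors did not use for normalization. What the authors deposited are raw counts, 1 value per gene, and 5 closing rows that name no gene were left out of library sizes and tests. Samples were grouped by their titles.

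edgeR 4.0.16 in R 4.3.3 (limma 3.58.1) gave TMM factors and quasi-likelihood F tests across all genes kept by filterByExpr, with Benjamini-Hochberg adjustment and a threshold of 0.05. RNA or footprints were tested over 4 libraries and TE as an interaction over 8. Positive differences mean higher in the group named first. CPM used the total count on genes. Likeness used log2(CPM + 1). DESeq2 1.42.0, which the study used for TE, was an alternative, with other scalings (RLE, upper quartile, TMM without ribosomal protein genes), other filters, all groups in one fit, a replicate block, a culture block and leaving out each replicate. The tests were checked on simulated counts with changes larger than most of those given here, and smaller changes were not simulated. Window sharing and frameshift sites were read from GENCODE M21 transcripts and annotation (GRCm38), where all 8 members matched by symbol. Genes named outside the members are those of the wider list that passed a test, the targeted gene and the 2 genes most like each member (those of Azin1 are not reported here); Myc and the genes too low to test were named after their values were seen. The members and lists were chosen with earlier results of these data known. Equal replicate numbers did not pair samples of different groups (r of deviations from group means -0.0842 to 0.0151); for equally numbered RNA and footprint libraries of 1 group r was 0.0698 to 0.116, so not every pair was over 0.1. The replicates differed by more than sampling noise (chi-square per gene 3.77 to 6.97).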

Additional observations from a re-analysis of the deposited data

How the results depend on the processing

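The direction and call of the members, of Cdkn2a and of the listed genes were recomputed under each alternative. A listed gene was included only in the comparisons where it was called. Each fit is counted below once for every such gene in it, so the numbers are of genes within fits and include Cdkn2a. Where a change was called, 195 alternative fits kept the call and 12 lost it, and with a library left out 49 kept it and 55 lost it; where none was called, 461 alternative fits gave none either, 6 gained a call and 4 turned the direction, and with a library left out 200 gave none, 4 gained a call and 28 turned the direction. With a library left out, the lone sample of a group is assumed to vary like the other group.

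Of members called with edgeR, the 3 in ArfKO-shSCR RNA became 1 to 3 with a library left out. The 2 in RNA of the libraries labelled WT-shARF became 1 with DESeq2 and 0 to 1 with a library left out. The 4 in ArfKO-shSCR footprints became 0 with DESeq2 and 0 in every fit with a library left out. The 0 in footprints of the libraries labelled WT-shARF, and the 0 in footprints between ArfKO-shSCR and these, became 0 to 1 with a library left out, and the 0 in TE of the libraries labelled WT-shARF became 1 with DESeq2. The cause was not tested. The replicate block moved Azin1 RNA in ArfKO-shSCR to an adjusted p of 0.0579 and Oaz1 RNA in the libraries labelled WT-shARF to 0.0484, brought the adjusted p of Cdkn2a TE in the latter from 0.151 to 0.0156, and changed no other call among the genes examined; over all genes it moved the TE calls from 4 to 35 in the libraries labelled WT-shARF and from 5 to 14 between ArfKO-shSCR and these.

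No difference that had been called turned its direction. The RNA difference of Oaz2 in ArfKO-shSCR was 0.0055 with DESeq2 and 0.0075 with the replicate block, the TE difference of Sms was 0.059 with no filter, and that of Odc1 for ArfKO-shSCR against the WT-shARF group was -0.017 with at least 10 counts required in every library. With a library left out, the ranges that crossed 0 were as follows. In ArfKO-shSCR against WT-shSCR they were -0.21 to 0.26 for Oaz2 RNA and, for TE, -0.13 to 0.28 for Srm, -0.84 to 0.12 for Oaz2 and -0.35 to 0.20 for Sms. In the libraries labelled WT-shARF against WT-shSCR they were -0.022 to 0.77 for Sms RNA, -0.39 to 0.071 for Oaz2 RNA, -0.12 to 0.53 for Oaz2 footprints, -0.036 to 0.45 for Azin1 footprints and, for TE, -0.25 to 0.16 for Srm, -0.16 to 0.45 for Sat1, -0.59 to 0.36 for Sms and -0.083 to 0.90 for Oaz2. In ArfKO-shSCR against the libraries labelled WT-shARF they were, for RNA, -0.0055 to 0.37 for Oaz2, -0.22 to 0.081 for Srm and -0.0063 to 0.78 for Sms, for footprints -0.0044 to 0.041 for Oaz1, -0.034 to 0.44 for Azin1, -0.072 to 0.22 for Srm and -0.39 to 0.21 for Sat1, and for TE -0.29 to 0.20 for Azin1, -0.060 to 0.37 for Srm, -0.059 to 0.14 for Odc1 and -0.41 to 0.57 for Sms.

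Counts over all genes moved by more than 1.5 times in these cases. With DESeq2 they were 414 and 291 in RNA against WT-shSCR, 1153 and 691 in footprints against WT-shSCR, 553 in footprints between the other groups, and 79, 55 and 27 in TE, where edgeR gave 845, 765, 1988, 1147, 900, 22, 4 and 5. With no filter 617 RNA calls replaced 273 between the groups other than WT-shSCR, and TE calls were 123, 40 and 77. With all groups in one fit, RNA calls in the libraries labelled WT-shARF were 497, and TE calls were 52 and 0 against WT-shSCR. At least 10 counts in every library gave 34 and 13 TE calls against WT-shSCR, the culture block 35, 41 and 81 TE calls, and upper quartile factors 2 in the libraries labelled WT-shARF. With a library left out, they ranged from 222 to 790, 274 to 883 and 6 to 798 in RNA, 0 to 1193, 614 to 1067 and 0 to 781 in footprints, and 6 to 51, 7 to 24 and 1 to 125 in TE, in the order of comparisons above.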
